A study of Mus musculus with 2 samples.

Results

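DNA replication and mitosis genes were followed through thymic regulatory T (Treg) lineage cells as 55 listed gene symbols, of 32285 genes in the deposited matrix. The list was a set of names and applied no rule on level in these cells, but it was chosen with earlier results of these data known. It was divided by textbook role into 22 S-phase members, which copy DNA or supply the building blocks for it, and 33 mitotic members, which condense, attach and separate chromosomes. Cells came from 2 mice on the C57BL/6 background. The control mouse carried the Foxp3eGFP reporter, in which green fluorescence marks cells that express Foxp3, the transcription factor that defines Treg cells. The other mouse, Foxp3eGFPxLta-/-, carried the same reporter and lacked Lta, the gene of the cytokine lymphotoxin alpha. Neither the age nor the sex of the mice was given in the sources used here. CD8+ and CD11c+ cells were depleted from each thymus, and CD4+CD8-CCR6-CD3e+ cells positive for CD25, the product of Il2ra, or for eGFP, or for both were sorted. From each mouse 20000 sorted cells were marked with a hashtag antibody, pooled and captured in 1 well for droplet 3' RNA sequencing. With 1 mouse per genotype there was no test between genotypes. Ranges in parentheses are exact 95% intervals for counting error alone. A difference between the genotypes cannot be told apart from a difference between 2 mice.

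Before a cell divides it copies its DNA in S phase. The MCM helicase is loaded on origins by Cdc6 and Cdt1 and started with Cdc45 and the GINS complex, and PCNA then clamps the polymerases to the template. In mitosis cyclin B and Cdk1 drive chromosome condensation and spindle assembly until Cdc20 and the anaphase promoting complex destroy the cyclin. In the thymus much division takes place as cells pass from the double-negative to the double-positive stage, and developing Treg cells can divide again after they receive T cell receptor and cytokine signals.

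After the filters on genes and mitochondrial reads, 4638 of 4798 barcodes were kept. A single hashtag marked 4453 cells, of which 2209 came from the Foxp3eGFP mouse (15010916 UMIs, median 5547 per cell) and 2244 from the Lta-/- mouse (14054827 UMIs, median 5395 per cell). The other 185 cells did not meet the rule for a single hashtag, through counts of both hashtags or too few counts, and were left out. Lta itself gave 509 UMIs in the Foxp3eGFP cells and 72 in the Lta-/- cells. The sorted identity was only partly visible in the transcripts: a Cd3e UMI was found in 95.1% of the cells, a Cd4 UMI in 59.4%, a Foxp3 UMI in 19.9% and an Il2ra UMI in 21.9%. Of the CD8 chains, a Cd8a UMI was found in 2.72% of the cells and a Cd8b1 UMI in 14.6%.

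Promoters are shown first because the S-phase and the mitotic members differed in the cells and also, in part, in the letters around their start sites. RefSeq promoter sequences (GRCm38.p6, 250 bases before to 50 after the start) were found for 47 of the 55 members, 19 S-phase and 28 mitotic. Both strands were searched for the E2F element (TTTCCCGC, TTTCGCGC, TTTGCCGC or TTTGGCGC), for the cell cycle homology region, CHR (TTTGAA or TTTAAA), and for the CCAAT box (CCAAT). E2F proteins are known as regulators of S-phase genes, and CHR and CCAAT elements as features of promoters that are active in G2 and mitosis. An E2F element was present in 7 of 19 S-phase promoters (36.8%) and in 1 of 28 mitotic promoters (3.57%, that of Cdk1), against 2.32% of 27025 promoters of the same length. A CHR was present in 24 of 28 mitotic promoters (85.7%), in 7 of 19 S-phase promoters (36.8%) and in 27.8% of all promoters. A CCAAT box was present in 22 mitotic (78.6%) and 11 S-phase promoters (57.9%), against 37.9% of all. Both a CHR and a CCAAT box were present in 21 mitotic (75.0%) and 5 S-phase promoters (26.3%), against 10.9% of all. The 5 sequences below were chosen as 2 S-phase promoters with E2F elements (Mcm3, chr1:20820263-20820562, minus strand, and Mcm6, chr1:128359656-128359955, minus strand), 2 mitotic promoters with CHR and CCAAT elements (Plk1, chr7:122159185-122159484, plus strand, and Ccnb1, chr13:100786437-100786736, minus strand), and Pclaf (chr9:65890073-65890372, plus strand), an S-phase member whose promoter held all 3 elements. They run 5′ to 3′ on the strand of the gene, with matches to the 3 elements in capitals on either strand.
Mcm3: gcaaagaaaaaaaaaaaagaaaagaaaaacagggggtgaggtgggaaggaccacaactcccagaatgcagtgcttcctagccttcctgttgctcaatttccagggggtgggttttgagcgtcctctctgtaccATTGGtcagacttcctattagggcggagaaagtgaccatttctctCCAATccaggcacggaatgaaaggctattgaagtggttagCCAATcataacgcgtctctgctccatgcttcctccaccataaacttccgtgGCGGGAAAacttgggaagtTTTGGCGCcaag
Mcm6: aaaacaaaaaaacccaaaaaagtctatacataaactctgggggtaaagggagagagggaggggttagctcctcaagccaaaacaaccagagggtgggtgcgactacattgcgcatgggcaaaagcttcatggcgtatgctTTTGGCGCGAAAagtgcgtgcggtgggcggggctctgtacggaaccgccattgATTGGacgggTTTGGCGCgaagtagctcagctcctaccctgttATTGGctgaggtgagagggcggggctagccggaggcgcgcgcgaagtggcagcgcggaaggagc
Plk1: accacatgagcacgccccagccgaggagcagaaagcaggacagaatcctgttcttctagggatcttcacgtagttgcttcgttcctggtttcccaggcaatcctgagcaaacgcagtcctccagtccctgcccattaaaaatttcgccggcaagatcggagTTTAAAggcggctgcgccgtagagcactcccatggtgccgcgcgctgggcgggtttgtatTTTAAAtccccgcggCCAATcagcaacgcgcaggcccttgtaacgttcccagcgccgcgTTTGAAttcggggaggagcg
Ccnb1: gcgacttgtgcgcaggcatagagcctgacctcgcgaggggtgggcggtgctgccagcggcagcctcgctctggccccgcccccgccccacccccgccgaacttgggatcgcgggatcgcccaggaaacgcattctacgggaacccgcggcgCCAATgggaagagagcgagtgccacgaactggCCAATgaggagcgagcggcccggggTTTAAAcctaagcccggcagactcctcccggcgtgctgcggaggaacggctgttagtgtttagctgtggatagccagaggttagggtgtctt
Pclaf: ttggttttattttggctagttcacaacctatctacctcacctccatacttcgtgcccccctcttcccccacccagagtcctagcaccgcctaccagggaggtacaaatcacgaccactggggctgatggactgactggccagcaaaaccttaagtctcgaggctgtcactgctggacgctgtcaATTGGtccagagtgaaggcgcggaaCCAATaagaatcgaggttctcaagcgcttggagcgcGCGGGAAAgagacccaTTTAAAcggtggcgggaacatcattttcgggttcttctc
In the Mcm6 promoter the first run of capitals is a pair of overlapping E2F matches on opposite strands. A match is a description of letters and not evidence that a protein binds there.

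Cycling cells were called from the members themselves. A cell counted as S-high when its S-phase member UMIs numbered at least 10 and made up at least 20 per 10000 of all its UMIs, and as M-high by the same rule for the mitotic members. With all 33 mitotic members in the rule, 691 of 4453 cells cycled (15.5%, 14.5 to 16.6). Of these, 257 cells passed only through Smc4, a condensin subunit that compacts chromosomes. Smc4 held 87.1% of the mitotic UMIs in those 257 cells, which had a median of 4711 UMIs and 14 Mki67 UMIs in all. It also held 80.3% of the mitotic UMIs in non-cycling cells, against 7.82% in cycling cells. Smc4 was therefore left out of the rule, a choice made after these values were seen. The remaining rule called 434 cells (9.75%, 8.89 to 10.7), and these are the cycling cells below unless Smc4 is said to be in the rule. Near the S threshold, 61 cells lay at 15 to 20 per 10000 and 43 at 20 to 25. Near the M threshold 14 and 8 cells lay in these ranges, but 159 and 116 with Smc4 in the rule.

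Of the 434 cycling cells, 135 were S-high only (31.1%), 215 were both S-high and M-high (49.5%) and 84 were M-high only (19.4%). Cells in cycle were larger in RNA content, with a median of 13381.5 UMIs against 5221 in the other cells, and with medians of 10009, 14620 and 13824 in the 3 classes. Among the 90 cells with the most UMIs, 79 cycled. After each cell was thinned to 3000 UMIs, with a minimum of 6 member UMIs and 309 shallower cells left out (2062 Foxp3eGFP and 2082 Lta-/- cells stayed), 460 of 4144 cells cycled (11.1%). The share in the 185 cells without a single-hashtag call, which may include doublets, was 11.9% (7.60 to 17.4).

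**Figure D1:**
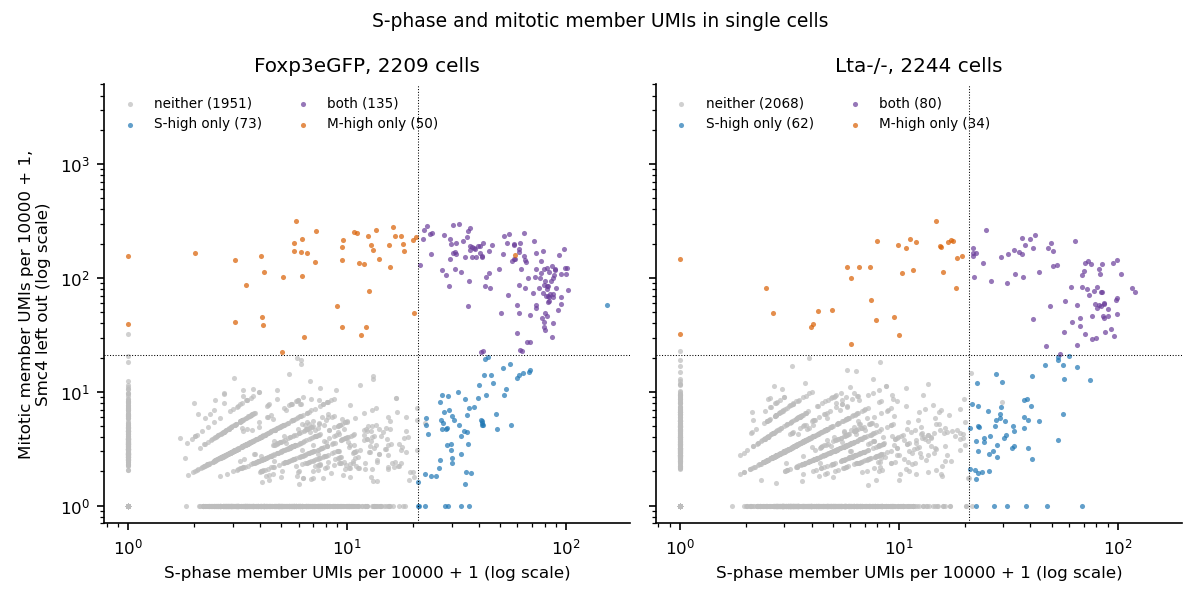
Each point is a cell, placed by its S-phase member UMIs (x axis) and its mitotic member UMIs without Smc4 (y axis), per 10000 of its UMIs plus 1 on log scales, with the 20 per 10000 thresholds dotted and the number of cells per class in brackets. Cycling cells form an arc from S-high only through both (135 Foxp3eGFP and 80 Lta-/- cells) to M-high only, and the few points past a line in another class's colour had under 10 member UMIs.

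Most S-phase members were spread over cycling and non-cycling cells, whereas most mitotic members sat almost wholly in cycling cells. Cycling cells, 9.75% of all, held 21.6% of the UMIs of all genes. They held a median of 96.8% of the UMIs of a mitotic member, and 27 of 33 mitotic members had at least 90% of their UMIs there. For the S-phase members the median was 73.4%, and 7 of 22 reached 90%. All 55 members had a higher CPM (counts per 1000000 UMIs) in cycling than in other cells, 54 of them by at least 1.5-fold, where 14.0% of 10709 genes were that much higher and 21.0% that much lower. This contrast follows from the rule that called the cells, although each member was left out of the call for its own value, so the count is a description. The S-phase members had a median log2 ratio of 3.34 and the mitotic members one of 6.76. At the top were Nusap1, a spindle microtubule binder (8.80), Bub1, a spindle checkpoint kinase (8.25), and Hmmr, a spindle protein (8.12). At the bottom were Smc4 (0.21) and 2 helicase subunits, Mcm4 (1.84) and Mcm2 (1.91).

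By the median member, licensing and helicase genes had the smallest share of UMIs in cycling cells of all role groups (61.2%), although Smc4 was the most evenly spread single member (24.1%). Mcm2, Mcm4, Mcm6, Mcm7 and Cdt1 had under 60% of their UMIs in cycling cells, as did Ung, which removes uracil from DNA. Mcm5, a subunit of the MCM ring, stood at 192 CPM in S-high only cells, 153 in cells of both classes, 33.5 in M-high only cells and 18.5 in cells of neither class. It was detected in 73.3% of cycling and 8.36% of other cells. Mcm3 had 403, 278, 40.3 and 36.7 CPM in the same 4 classes, and Mcm6 had 304, 191, 20.1 and 36.8, so that M-high only cells were at or below the level of the cells out of cycle for Mcm6 and close to it for Mcm3. Cdc6, the loader of the helicase, was confined more closely, with 93.5% of its UMIs in cycling cells and 52.3, 57.7, 4.93 and 0.88 CPM. Cdt1, its partner and a protein that is destroyed once S phase starts, had 52.6, 53.3, 3.35 and 8.85 CPM. Cdc45 was highest in cells of both classes at 75.3 CPM.

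At the replication fork, Pcna, the sliding clamp, had 287 CPM in S-high only cells, 434 in both, 44.7 in M-high only and 56.3 in neither. Lig1, which seals Okazaki fragments, had 254, 305, 20.7 and 18.0 CPM, and Uhrf1, which carries DNA methylation onto the new strand, had 91.3, 170, 25.2 and 3.95 CPM. Pclaf, a PCNA-binding protein, stood apart from its group, with 142 CPM in S-high only cells, 1486 in both, 459 in M-high only and 3.73 in neither. Among the nucleotide enzymes Rrm2, the small subunit of ribonucleotide reductase, behaved in the same way, with 51.7, 529, 93.1 and 1.27 CPM. Its partner Rrm1 had 94.9, 240, 84.3 and 14.2 CPM, Tyms, which makes thymidylate, 105, 409, 70.7 and 6.79 CPM, and Tk1, which salvages thymidine, 49.2, 205, 38.9 and 1.76 CPM. Dut, which removes dUTP, was found in 27.1% of the non-cycling cells and had 577, 733, 164 and 71.5 CPM. Ung ran the other way from Rrm2, with 144, 36.5, 1.67 and 11.7 CPM. The E cyclins, which start S phase with Cdk2, were highest in cells of both classes: Ccne1 had 42.7, 108, 5.78 and 5.48 CPM, and Ccne2 19.7, 72.1, 0.84 and 0.88 CPM.

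All mitotic members were higher in M-high only than in S-high only cells. Ccnb1, the cyclin that activates Cdk1 at mitotic entry, had 6.15 CPM in S-high only cells, 104 in both, 311 in M-high only and 1.18 in neither. Cdk1 had 26.8, 290, 358 and 1.10 CPM, while Ccna2, a cyclin of S phase and G2, was highest in both at 249 CPM and had 203 in M-high only cells. The ubiquitin enzyme Ube2c, which works with the anaphase promoting complex, had 3.69, 695, 1611 and 3.82 CPM, and its activator Cdc20 had 10.9, 140, 344 and 2.37 CPM. Of the kinases, Plk1 had 1 UMI in S-high only cells and 180 CPM in M-high only cells, and Aurkb had 3.69, 171, 134 and 0.48 CPM. At the kinetochore Cenpf had 8.58, 514, 1322 and 3.42 CPM, whereas Cenpa, the centromeric histone, was also found in 18.0% of non-cycling cells at 37.8 CPM. Hmmr had 0 UMIs in the S-high only cells and 506 in the M-high only cells. Mki67, the usual marker of dividing cells, had 41.0, 1105, 1261 and 3.73 CPM, and was detected in 73.4% of cycling and 1.82% of other cells. Top2a, the topoisomerase that untangles sister chromosomes, was highest in cells of both classes, with 181, 2076, 1618 and 12.5 CPM.

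The contrast of M-high only with S-high only cells set the members in 1 order. The 33 mitotic members had log2 ratios from 0.95 (Smc4) to 8.77 (Ube2c, 7.65 to 10.2), with a median of 4.98. All of them passed 1.5-fold, where 14.7% of 5949 genes were that much higher and 13.8% that much lower. Below Ube2c came Plk1 (8.19, 5.70 to 13.5) and Hmmr, whose ratio was 7.84 with 3 counts over the class in place of 0 and whose exact interval starts at 7.54. Of the 22 S-phase members 21 had at least 50 UMIs in the 2 classes together, and 16 of these were at least 1.5-fold lower and 2 that much higher. The lowest was Ung (-6.43, -9.48 to -4.56), from 231 UMIs against 2, followed by Cdt1 (-3.97) and Mcm6 (-3.92). Ccne2 had 32 UMIs against 1, a ratio of -4.55 (-9.90 to -1.97). Pclaf (1.69, 1.48 to 1.91) and Rrm2 (0.85, 0.44 to 1.27) were the 2 S-phase members on the mitotic side. Each member was left out of its own class call. A cell of both classes that was S-high only with Pclaf or Rrm2 counted was thus M-high only for that member. This raises the ratio of an abundant S-phase member, so part of these 2 ratios may come from the rule, and its size was not tested. The intervals of Rrm1 (-0.17, -0.54 to 0.20) and Tk1 (-0.34, -0.88 to 0.19) included 0. By highest class, 8 S-phase members peaked in S-high only cells and 14 in both, and 19 mitotic members peaked in M-high only cells and 14 in both. The classes are set by other members of the same 2 groups in the same cells, so this order is a description with no test.

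**Figure D2:**
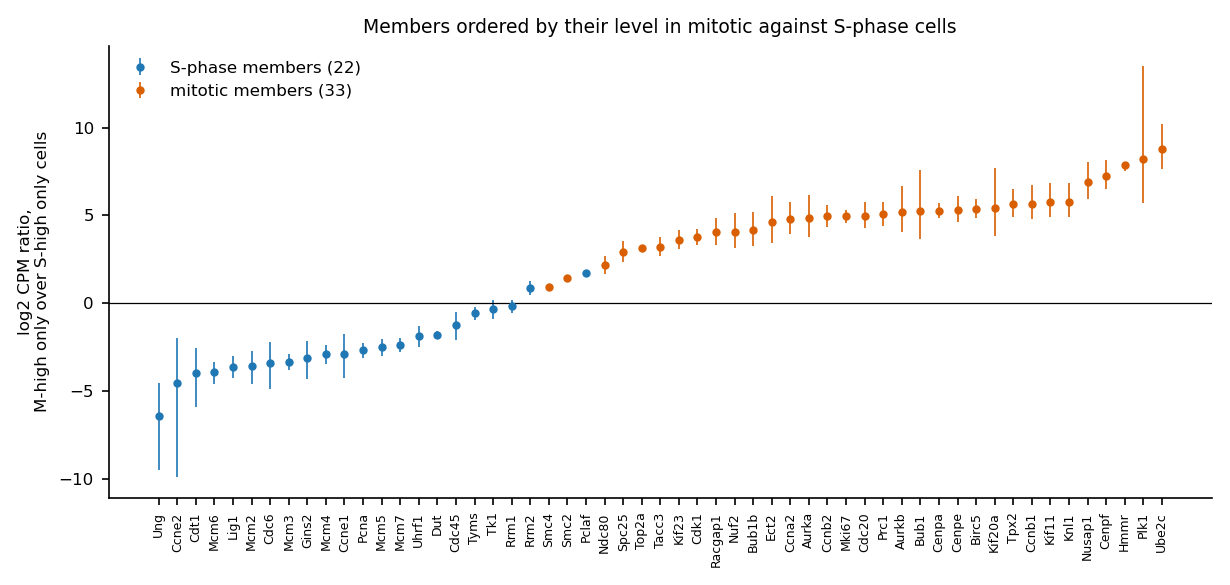
Points give each member's log2 CPM ratio of M-high only over S-high only cells with exact 95% intervals, ordered by the ratio, with the upper end of Hmmr unbounded because of 0 UMIs in S-high only cells. The S-phase members run from Ung (-6.43) to Rrm2 (0.85) and Pclaf (1.69), and the mitotic members from Smc4 (0.95) to Ube2c (8.77).

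Smc4 was unlike the other members in being present in most cells out of cycle. It gave 454 CPM in S-high only, 909 in both, 875 in M-high only and 680 in cells of neither class, and was found in 81.2% of non-cycling cells. Its condensin partner Smc2 had 170, 628, 455 and 45.1 CPM and was found in 18.4% of non-cycling cells. Among the non-cycling cells, Smc4 stood at 982 CPM (954 to 1011) in the 849 with a Foxp3 UMI and at 601 (590 to 613) in the 3170 without one. It was at 642 CPM in those with an Il2ra UMI against 693 without, and at 390 CPM in 322 Ccr9-high cells, an immature CD4 state.

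Genes of the cell cycle that are not members followed the members. All 46 other S-phase genes measured were at least 1.5-fold higher in cycling than in other cells, where 14.0% of all genes were that much higher and 21.0% lower. Their median log2 ratio was 2.59, and Mcm10, an initiation factor, had the largest at 7.62. Of 52 other mitotic genes 51 were that much higher, with a median of 5.69. They were led by Spag5 (9.54), Nek2 (8.99) and Kif2c (8.40), and the exception was Pttg1, securin, at -0.21. Of 35 control genes with at least 50 UMIs 21 were higher and 6 lower in CPM, and the lower share was not above the 21.0% of all genes. In UMIs per cell 34 lay above 0 and 0 were 1.5-fold lower. The higher ones included E2f8 (7.74) and E2f7 (6.72), which repress S-phase genes, Mybl2 (6.22) and Foxm1 (5.44), which drive mitotic genes, and Cdkn2c (4.39), a Cdk4 and Cdk6 inhibitor. The lower ones included Btg1 (-1.71), an antiproliferative gene, and Cdkn1b (-0.67), the inhibitor p27. Ccnd2 and Ccnd3, cyclins of G1, were at -0.51 and 0.12.

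Treg-lineage genes had lower CPM in the cycling cells. Of 23 listed genes measured, 19 were at least 1.5-fold lower and 0 that much higher, where 21.0% of all genes were that much lower and 14.0% higher. The list had a median log2 ratio of -1.58 against -0.12 over all genes tested. Foxp3 had 56 UMIs (8.92 CPM) in cycling cells and 1449 (63.6 CPM) in the others, a log2 ratio of -2.83 (-3.24 to -2.45). Il2ra had 137 UMIs (21.8 CPM) against 2302 (101 CPM), a ratio of -2.21 (-2.47 to -1.96). Next came Socs2, a STAT5 target (-2.67), Rgs1 (-2.54) and Cd83 (-2.31), while Ikzf2, which encodes Helios, was at -1.51 and Tnfrsf4, which encodes OX40, at -1.85. The 4 genes that did not reach 1.5-fold were Icos (0.14), Capg (-0.11), Izumo1r (-0.48) and Itgae (0.28, -0.23 to 0.76).

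Depth and the class rule both moved these values. Counted as UMIs per cell instead of CPM, the summed list was level between cycling and other cells (log2 0.0073), 10 of 23 genes were higher and 8 at least 1.5-fold lower, and Foxp3 and Il2ra were at -1.48 and -0.86. With Smc4 in the rule, the summed CPM ratio was -1.06 in place of -1.34, that of Foxp3 was -1.11 in place of -2.83 and that of Il2ra -1.76, and 17 genes were lower. With Smc4 in the rule and each cell thinned to 3000 UMIs, Foxp3 was at 0.02, so the size of its ratio depends on how Smc4 is treated.

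**Figure D3:**
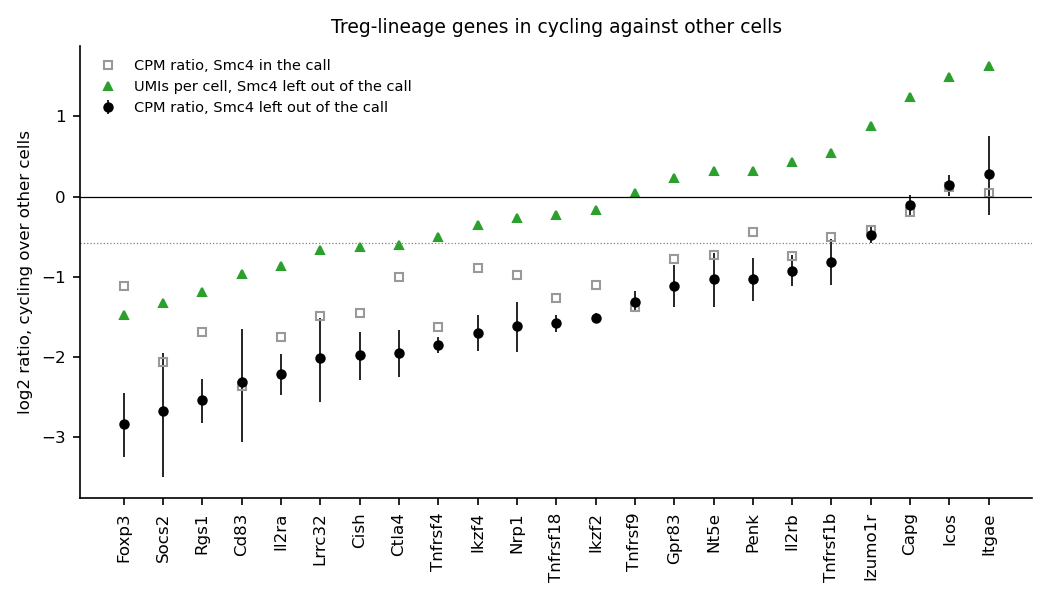
For each of 23 Treg-lineage genes, the y axis gives the log2 ratio of cycling over other cells in CPM with exact 95% intervals (black), the same with Smc4 in the rule (open squares) and the ratio of UMIs per cell (green triangles), with the dotted line at 1.5-fold lower. Foxp3 is lowest at -2.83 and moves to -1.11 with Smc4 in the rule, while Icos, Capg and Itgae lie near 0 in CPM and above 0 per cell.

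Few cycling cells held a transcript of either gate gene. A Foxp3 UMI was present in 38 of 434 cycling cells (8.76%) and in 21.1% of the others, and after thinning in 11 of 460 cycling cells (2.39%, 1.20 to 4.24) and 552 of 3684 other cells. The Ccr9-high cells, taken as a reference for an immature state, had 5.90% before thinning, at a median of 5616 UMIs against 13381.5 in the cycling cells, and 4.18% (2.24 to 7.04) after it. These reference cells came from the same sort and may hold some Foxp3 themselves, so the thinned share shows only that cycling cells were not above them at this depth. An Il2ra UMI was present in 11.5% of cycling and 23.0% of other cells, and after thinning in 5.22% (3.37 to 7.66) and 16.6%, against 5.14% in the Ccr9-high cells. Read the other way, 20 of 497 cells with a Foxp3 UMI alone cycled (4.02%, 2.48 to 6.15), 32 of 584 with Il2ra alone (5.48%, 3.78 to 7.65), 18 of 390 with both (4.62%, 2.76 to 7.20) and 364 of 2982 with neither (12.2%, 11.1 to 13.4). The 3 classes with a gate transcript did not differ beyond their intervals. Cells with neither lay above all 3.

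Other T cell programmes also differed in the cycling cells. In CPM, 21.0% of all genes were at least 1.5-fold lower in cycling cells and 14.0% higher, and the lower lists depended on that scale. Of 25 genes of strong T cell receptor signalling 19 were at least 1.5-fold lower and 0 higher in CPM, but in UMIs per cell 15 lay above 0 and 4 were that much lower. Among the 19 were Nr4a1 (-1.88) and Nr4a3 (-2.22). Ccl4 had 1 UMI against 352 and Ccl3 0 against 83. Of 24 genes of maturation and egress 12 were lower in CPM and 0 in UMIs per cell, where 21 lay above 0, and the summed CPM ratio was -0.18. The lower ones were led by Gimap3 (-1.84) and S1pr1 (-1.72), the receptor that guides exit from the thymus, and Igfbp4 was higher (1.62). Of 15 effector or recirculating genes 3 were at least 1.5-fold higher and 4 lower in CPM, with a median log2 ratio of 0.12. Lgals1, galectin-1, of this list stood at 613 CPM in cycling and 195 in other cells (1.65). Of the dissociation-stress genes 7 of 10 were lower in CPM and 1 in UMIs per cell, and the summed CPM ratio was -0.0083. Fos was at -2.36, and the chaperone Hsp90aa1 was higher at 1.19.

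Markers of other thymocytes were also found in cycling cells. Of 12 double-positive or earlier thymocyte genes 7 were at least 1.5-fold higher in CPM and 2 lower, Cd1d1 (-1.43) and Cd4 (-0.64), against 14.0% and 21.0% of all genes. Among the 7 were Rag1 (3.26) and Dntt (2.84), which build receptor genes, and Ptcra (2.70), the pre-T cell receptor chain. Rag1 came from few cells, with 25.8% of its 66 cycling-cell UMIs in 1 cell. Of 12 gamma-delta or innate-like T cell genes 7 were higher and 3 lower, Gzmc (-4.04), Tyrobp (-1.25) and Fcer1g (-0.94). Among the 7 were Tcrg-C2 (2.64), Zbtb16 (3.07) and Gzma (4.45), with 23.6% of the Gzma UMIs in 1 cell. At least 3 UMIs of double-positive genes (Cd8a, Cd8b1, Rag1, Rag2, Dntt and Ptcra) marked 43 of 434 cycling and 63 of 4019 other cells, and at least 3 UMIs of gamma-delta receptor genes marked 38 and 52. One mark or the other was present on 61 cycling cells (14.1%) and 108 other cells (2.69%). These marks are fixed counts, and the cycling cells had a median of 13381.5 UMIs against 5221. A cycling cell could therefore pass at a lower level, and the marked shares were not compared at equal depth. Summed over each list, the CPM was 564 in cycling against 407 in other cells for the double-positive genes and 284 against 117 for the gamma-delta genes. In the 373 cycling cells without either mark a Foxp3 UMI was present in 8.58% and an Il2ra UMI in 9.65%, so these shares were as low without the marked cells. B and plasma cell genes were lower in cycling cells, where Iglc2 had 4 UMIs against 3595 and Jchain 8 against 1679, and the myeloid genes C1qa, C1qb and C1qc had 3 or 4 UMIs each. Counted by cells the direction was the other one: at least 5 UMIs over the B, plasma and myeloid lists together were present in 56 of 434 cycling cells (12.9%) and 157 of 4019 others (3.91%). This mark is also a fixed count. With the classes called after thinning the shares were 12.2% and 4.07%. The marked cells then numbered 56 and 150, nearly as before, so the mark itself was not compared at equal depth. Cst3 and Ighm gave most of the UMIs of these lists in cycling cells, with 707 and 307.

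Fewer Lta-/- cells were in cycle. Cycling cells numbered 258 of 2209 in the Foxp3eGFP mouse (11.7%, 10.4 to 13.1) and 176 of 2244 in the Lta-/- mouse (7.84%, 6.76 to 9.03), a ratio of 0.672 (0.551 to 0.817). With Smc4 in the rule there were 382 (17.3%) and 309 (13.8%), a ratio of 0.796 (0.683 to 0.928). After thinning without Smc4 the shares were 13.2% and 8.98%, a ratio of 0.678. Cycling cells had medians of 13564.5 UMIs in the Foxp3eGFP mouse and 12940.5 in the Lta-/- mouse. The counts were 73 and 62 for S-high only cells, a ratio of 0.836 (0.586 to 1.19), and 135 and 80 for cells of both classes, a ratio of 0.583 (0.437 to 0.775). They were 50 and 34 for M-high only cells, a ratio of 0.669 (0.420 to 1.06). The interval lay below 1 for cells of both classes and included 1 for the other 2, and a difference between the 3 ratios was not tested. Within the cycling cells the mix was 28.3%, 52.3% and 19.4% in the Foxp3eGFP mouse and 35.2%, 45.5% and 19.3% in the Lta-/- mouse, with overlapping intervals for each class.

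**Figure D4:**
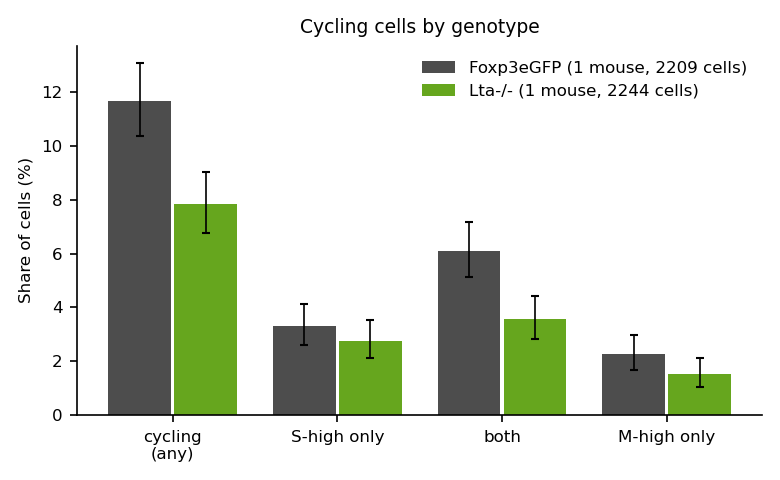
Bars give the share of all cells of each mouse that cycled and that fell in each of the 3 cycling classes, with exact 95% intervals for counting error and 1 mouse per genotype. The cycling share was 11.7% in the Foxp3eGFP mouse and 7.84% in the Lta-/- mouse, and the intervals of the cells of both classes do not overlap.

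The lower share was present where no gate transcript was found. Among cells with neither Foxp3 nor Il2ra UMIs, 212 of 1422 Foxp3eGFP cells (14.9%, 13.1 to 16.9) and 152 of 1560 Lta-/- cells (9.74%, 8.32 to 11.3) cycled. Among cells with both transcripts 13 of 218 (5.96%) and 5 of 172 (2.91%) cycled, with Il2ra alone 22 of 316 (6.96%) and 10 of 268 (3.73%), and with Foxp3 alone 11 of 253 (4.35%) and 9 of 244 (3.69%). The intervals of these 3 pairs overlapped, so a difference was not detectable at these numbers of cells. After thinning the direction turned for Il2ra alone (4.31% and 5.00%) and for Foxp3 alone (2.01% and 2.23%), and cells with neither were at 16.7% and 10.8%. Within cycling cells Foxp3 had 38 UMIs in the Foxp3eGFP mouse and 18 in the Lta-/- mouse, a log2 ratio of -0.47 (-1.37 to 0.37), and Il2ra had 104 and 33, a ratio of -1.05 (-1.66 to -0.47). Counted by cells, an Il2ra UMI was present in 35 of 258 (13.6%, 9.63 to 18.4) and 15 of 176 cycling cells (8.52%, 4.85 to 13.7), with overlapping intervals. After thinning the Il2ra shares turned to 4.76% in the Foxp3eGFP and 5.88% in the Lta-/- cycling cells. Cells with double-positive marks were 29 of 258 and 14 of 176 cycling cells, and those with gamma-delta marks 24 and 14. The log2 ratio of cycling shares, -0.57 over all cells, was -0.53 (-0.83 to -0.23) without double-positive-marked cells and -0.57 (-0.87 to -0.28) without gamma-delta-marked cells, so it was about as large without either.

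Summed over all cells, the 55 members had 71009 UMIs (4730 CPM) in the Foxp3eGFP mouse and 47561 (3384 CPM) in the Lta-/- mouse, a log2 ratio of -0.48 (-0.50 to -0.47). All 55 members had a ratio below 0. With at least 50 UMIs each, 29 were at least 1.5-fold lower in Lta-/- cells and 0 higher, where 2.83% of 10709 genes were that much lower and 2.41% higher. Their median was -0.62, against 0.0041 over all genes tested. Of the 29, 25 were mitotic and 4 S-phase members: Rrm2, Ccne1, Ccne2 and Cdc45. As 76.3% of the members' UMIs came from cycling cells, these 55 ratios count largely the same cells and are not separate observations.

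Within cycling cells, which the same members' UMIs had called, the ratios lay closer to 0. The sum of the members without Smc4 was at -0.16 (-0.18 to -0.14), but at -0.33 after thinning and -0.31 without the 2% of cells with the most UMIs. The 22 S-phase members together stood at 4384 CPM in Foxp3eGFP and 4370 CPM in Lta-/- cycling cells, a log2 ratio of -0.0047 (-0.040 to 0.030), and 11 of them lay above 0 and 11 below. The 32 mitotic members without Smc4 stood at 9848 and 8343 CPM, a ratio of -0.24 (-0.26 to -0.21), and all 33 mitotic members lay below 0. Of the 55 members 0 passed 1.5-fold in cycling cells, where 3.08% of 7988 genes were that much lower and 2.59% higher. In cells out of cycle the S-phase members stood at 403 and 372 CPM (-0.11, -0.17 to -0.05) and the mitotic members without Smc4 at 161 and 173 CPM (0.11, 0.01 to 0.20). Of 32 members with at least 50 UMIs in those cells 2 were 1.5-fold higher in Lta-/- and 0 lower, where 2.46% of 10205 genes were that much higher and 1.65% lower. They were Cenpe (0.76), a kinetochore motor, and Kif23 (0.61), a midzone motor.

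Single members ran from -0.98 to -0.05 over all cells and from -0.49 to 0.25 within cycling cells. Knl1, a kinetochore scaffold, had 74.4 CPM in Foxp3eGFP and 37.9 in Lta-/- cells, a log2 ratio of -0.98 (-1.13 to -0.82), and was also lowest within cycling cells at -0.49 (-0.65 to -0.34). Plk1 had 28.7 and 15.1 CPM (-0.93) and Spc25, of the Ndc80 complex, 52.4 and 27.9 CPM (-0.91), and both were at -0.44 within cycling cells. Rrm2, with 88.0 and 47.4 CPM (-0.89), was the lowest S-phase member. The smallest ratios were those of Cdt1 (16.6 and 16.0 CPM, -0.05), Smc4 (720 and 684 CPM, -0.07) and Gins2, of the GINS complex (16.1 and 13.9 CPM, -0.21). The ratios of Cdt1, Gins2 and Cdc6 had intervals that included 0. Within cycling cells Cdc6 (0.25, -0.09 to 0.60), Cdt1 (0.21, -0.15 to 0.56) and Lig1 (0.17, 0.02 to 0.33) were the highest.

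Mki67 had 228 CPM in Foxp3eGFP and 146 in Lta-/- cells (-0.64, -0.72 to -0.57) and was detected in 10.3% and 7.26% of cells, and within cycling cells its ratio was -0.15. Top2a had 411 and 235 CPM (-0.80), and -0.33 within cycling cells. Pcna had 122 and 102 CPM (-0.26), and 0.01 within cycling cells, and Mcm5 49.4 and 38.2 CPM (-0.37) and -0.02. Ccnb1 had 32.2 and 20.3 CPM (-0.67) and -0.19 within cycling cells, and Cdk1 61.8 and 40.2 CPM (-0.62) and -0.13. The E cyclins had 24.4 and 14.7 CPM for Ccne1 (-0.73) and 12.6 and 8.04 CPM for Ccne2 (-0.65), with -0.32 and -0.19 within cycling cells, lower than the median S-phase member in both comparisons (-0.37 and -0.01). The fork group, Pcna, Pclaf, Lig1 and Uhrf1, was the 1 role group whose sum was higher in Lta-/- cycling cells (0.10, 0.04 to 0.15).

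**Figure D5:**
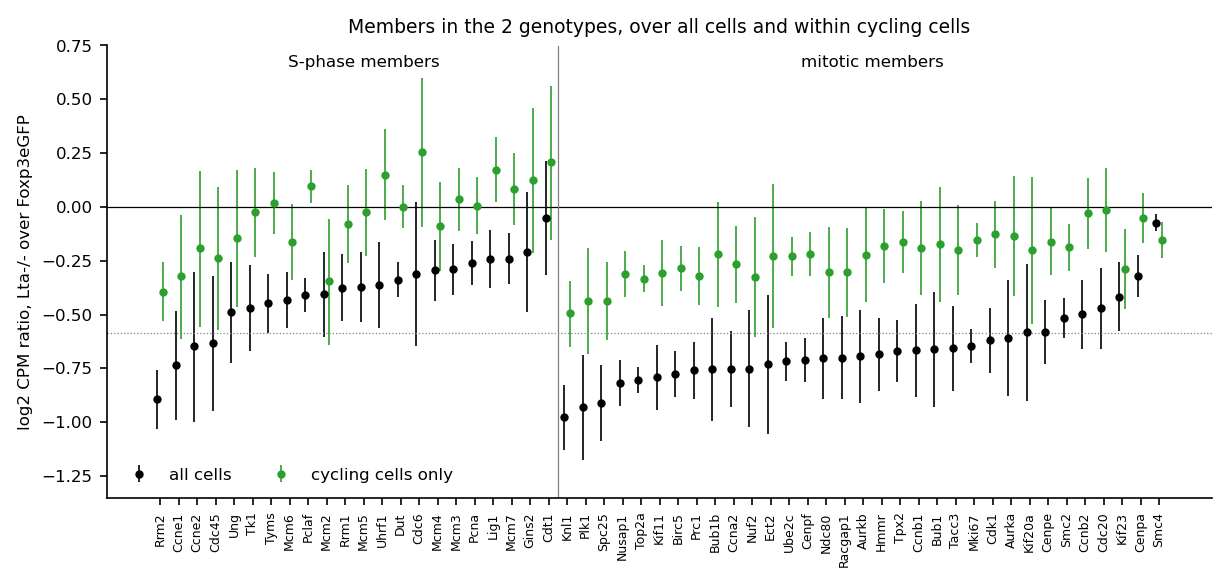
Points give each member's log2 CPM ratio of Lta-/- over Foxp3eGFP with exact 95% intervals, over all cells (black) and within cycling cells (green), S-phase members on the left, with the dotted line at 1.5-fold lower. Over all cells 29 members lie at or below that line, and within cycling cells 0 do, with the S-phase members around 0 and the mitotic members below 0.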

How the data were processed

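RNA and hashtag molecules of sorted thymic cells were counted in a single droplet capture that pooled both mice. The deposited matrix holds raw UMI counts per gene and barcode, whole numbers that the authors made before any normalization, per the file headers and values. The submitters' processing notes name Cell Ranger 6.0.1 and the mm10 (GRCm38) genome. Which annotation was used and how cells were called is not given in the sources used here.

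A barcode needed 500 detected genes and no more than 10% of its UMIs from mitochondrial genes, and 160 failed. A genotype was assigned at 10 or more hashtag counts of which at least 80% came from 1 hashtag. The deposited feature names gave the genotype of each hashtag. The labels' protocols number the antibodies differently, so the direction between genotypes follows those names, and Lta gave 509 UMIs in the cells they call Foxp3eGFP and 72 in those they call Lta-/-. No doublet caller was run: cells that missed the hashtag rule were left out, and doublets within a genotype remain.

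UMIs were summed over cells and expressed as CPM. Levels have exact Poisson intervals, shares Clopper-Pearson intervals and ratios exact conditional binomial intervals, at 95%. Ratios against 0 used 3 counts over the class. A gene counted as higher or lower at 1.5-fold with at least 50 UMIs in the compared cells together. The calculation was checked on simulated counts. With 1 mouse per genotype no p-value was computed. Each member was left out of the class call for its own class values. Any member could be named, with full values for the 3 largest and 3 smallest ratios of each comparison and for Mki67, Top2a, Pcna, Mcm5, Ccne1, Ccne2, Ccnb1 and Cdk1. Other genes came from 15 lists, up to 5 of each by size of ratio, with Foxp3 and Il2ra always. Ikzf2, Tnfrsf4, the Treg genes that missed 1.5-fold, Cdkn2c, Cdkn1b, Btg1, Ccnd2, Ccnd3, Pttg1, Cd1d1, Cd4, Tyrobp, Fcer1g, Cst3 and Ighm were named after their values were seen. The members and lists were chosen with earlier results of these data known. Alternatives changed the class threshold, depth, cell filters, hashtag threshold, scaling and the marked cells. The software was Python 3.11.15 with numpy 2.4.6, scipy 1.17.1, pandas 2.3.3 and matplotlib 3.10.9.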

Additional observations from a re-analysis of the deposited data

Results flagged for a closer look

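Of 259 listed genes with at least 50 UMIs in each mouse, 2 were at least 1.5-fold higher in cycling cells of 1 genotype and that much lower in those of the other. S100a4, an effector gene, had a log2 ratio of cycling over other cells of -0.73 in the Foxp3eGFP mouse (99 UMIs in cycling cells) and of 0.89 in the Lta-/- mouse (191 UMIs). Apoe, a myeloid gene, had a ratio of 1.23 in the Foxp3eGFP mouse (71 UMIs in cycling cells) and of -2.99 in the Lta-/- mouse (8 UMIs). A single cell held 20.3% of the S100a4 UMIs and 65.8% of the Apoe UMIs of all cycling cells. With 1 mouse per genotype neither difference was tested.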

How the results depend on the processing

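No paired analysis was possible because each genotype was 1 mouse, and the replicate number in the labels is shared only by the mRNA and hashtag libraries of the same capture. With Smc4 in the rule, the share of cycling cells was 15.5%, the summed Treg-lineage log2 ratio of cycling over other cells -1.06, the genotype ratio of cycling-cell counts -0.33 and that of member sums -0.48. Leaving Smc4 out of the rule and of the sums gave 9.75%, -1.34, -0.57 and -0.57. The sum ratio over all cells does not use the rule, so it changed only because Smc4 was no longer summed. The threshold moved the share and the lineage ratio: with Smc4, 10 per 10000 gave 22.5%, -0.78 and a count ratio of -0.19 (-0.37 to -0.0082), and 40 per 10000 gave 7.70%, -1.58 and a count ratio of -0.75, and without Smc4 they gave 12.4% and -1.15, and 7.21% and -1.59. Thinning gave 22.4% and -0.55 with Smc4, where Foxp3 turned from -1.11 to 0.017, and 11.1%, -1.17 and a sum ratio of -0.64 without it. Leaving out the 2% of cells with the most UMIs gave 14.0%, -0.91 and -0.60 with Smc4, and 8.14%, -1.25 and -0.74 without it. The lineage ratio was -0.99 with and -1.27 without Smc4 when double-positive-marked cells were left out, -0.97 and -1.29 without B, plasma or myeloid cells (sum ratios -0.45 and -0.54), and -0.98 and -1.28 without gamma-delta-marked cells. UMIs per cell gave lineage ratios of -0.13 with and 0.0073 without Smc4, a reversal, and sum ratios of -0.60 and -0.69. The median of members gave -0.62 and -0.63, and the mean over cells of each cell's own share -0.46 and -0.62. Within cycling cells the sum ratio ran from -0.44 to -0.09 with Smc4 (-0.26 by the stated rule) and from -0.33 to -0.09 without it (-0.16). Causes of these changes were not tested. Over these alternatives the genotype ratios of cycling-cell counts, of sums and of the named members over all cells stayed below 0. The class threshold does not enter the sums and named members over all cells, so their ratios were the same at 10 and 40 per 10000. Single members within cycling cells were not part of these alternatives, and there 11 of 55 lay above 0 without Smc4 in the rule. Intervals cover counting error only, and 1 mouse per genotype limits every comparison between genotypes.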
